A study of Mus musculus with 2 samples.

Results

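The genes described here encode 6 mouse topoisomerases (Top1, Top1mt, Top2a, Top2b, Top3a and Top3b) and the tyrosyl-DNA phosphodiesterases Tdp1 and Tdp2. They were chosen by name. No measured value entered the rule, but earlier results of these data were known when the choice was made. All 8 were found among the 21887 protein-coding genes placed on chromosomes 1 to 19, X and Y. DPPA2, a DNA-binding protein of pluripotent cells, had been mapped by ChIP-seq, the sequencing of DNA precipitated with an antibody to it, in R1/E cells. These are a p53+/+ mouse embryonic stem cell line grown with leukemia inhibitory factor. One group was given adriamycin for 8 h, which the labels describe as apoptosis induction, and the other was untreated. Each group had 1 library, so no test between groups was possible, and the spread between replicates is unknown. Peak lists hold no expression against which to check the labelled cell type. In pooled chromatin, more cells with DPPA2 at a site and more DPPA2 per cell cannot be told apart.

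Topoisomerases relieve the twist that transcription and replication put into DNA. They cut a strand, stay bound to it through a tyrosine and reseal it. Adriamycin (doxorubicin) traps type II enzymes, the products of Top2a and Top2b, at the cut stage, which leaves a protein-linked break. TDP2 removes the remnant of a type II enzyme from a DNA end, and TDP1 does so mainly for the type I enzyme TOP1.

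DPPA2 peaks lay at an end of 2 of the 8 genes, Top1 and Top2b, in the adriamycin list and of 0 of the 8 in the other. A gene-end peak is one whose summit lies within 1 kb of either end of the gene. The members' shares, 25.0% with adriamycin (exact 95% interval 3.19 to 65.1%) and 0% untreated (0 to 36.9%), both spanned the background. That background was 16.0% of all protein-coding genes with adriamycin and 5.78% untreated. No member had a summit further inside its body in either list, a position held in 17.9% of all genes with adriamycin and 8.16% untreated. With peaks up to 50 kb from an end included, 4 of the 8 genes (Top1, Top2a, Top2b and Top3a) had one with adriamycin and 1 of the 8 (Top3a) had one untreated. The background was 66.6% and 36.4%. The counts are small, and they do not set these genes apart from the rest of the genome.

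**Figure D1:**
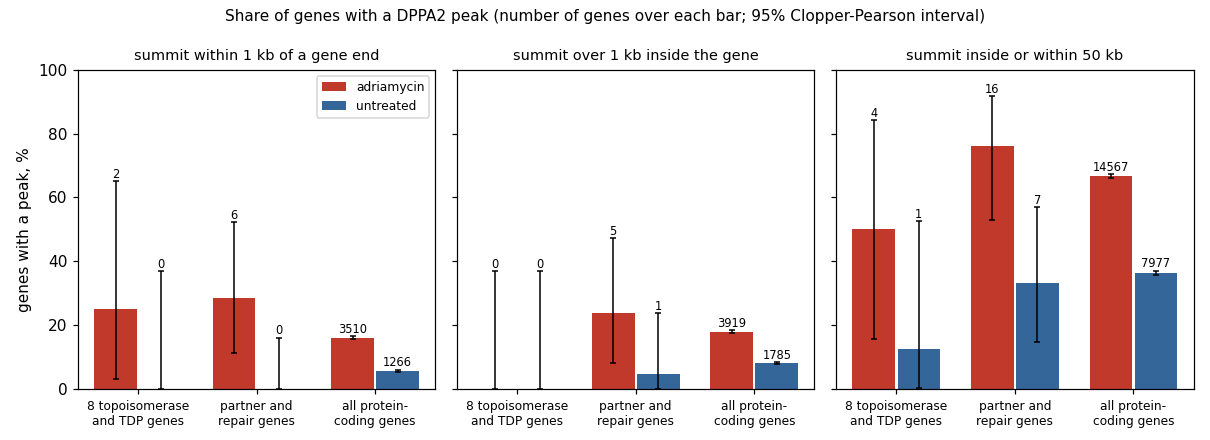
Percentage of genes with a DPPA2 peak at a gene end (left), further inside (middle) and in or within 50 kb of the gene (right), for the adriamycin (red) and untreated (blue) libraries. Bars are shares, error bars exact 95% binomial intervals for counting error only, and numbers are genes. In every panel the interval of the 8 topoisomerase and TDP genes includes the share of all protein-coding genes in the same library.

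TOP2B, the type II enzyme that non-dividing cells also use, is encoded by the member with the highest fold at its own start. Top2b spans chromosome 14, 16365206 to 16430787 in mm10, on the plus strand. In the adriamycin list a peak at 16365469 to 16365894 had its summit 505 bp downstream of the start site, inside the gene. Its fold enrichment, the ratio of summit to local background given by the authors' peak caller, was 5.41. The recovered fragment numbers give the deposited folds once 1 fragment is added to both summit and background. The summit was covered by 15 fragments (exact Poisson interval 8.40 to 24.7) over a local background of 1.96. A weaker peak at 16364677 to 16364876 lay on the other side, with its summit 459 bp upstream, a fold of 3.67 and 10 fragments (4.80 to 18.4) over 2.00. By fold they ranked 6843 and 15530 of 16229 peaks, so that the upstream one was among the weakest in the list. In the untreated list no summit lay nearer than 307822 bp to an end of Top2b.

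Summits on both sides of one start site were uncommon. Of 2769 genes with a summit within 1 kb of a RefSeq start site in the adriamycin list, 40 (1.44%) had one upstream and another downstream of the same site, Top2b among them. In the untreated list these were 10 of 1033 genes (0.968%). Downstream of the start lay 81.3% of the 2681 adriamycin and 81.2% of the 991 untreated summits within 1 kb. The fullest bin was the first 250 bp after the start, with 44.4% of adriamycin and 40.9% of untreated summits. The bin from 500 to 750 bp downstream, which holds the stronger Top2b summit, contained 7.20% of adriamycin and 9.38% of untreated summits. At 505 bp this summit lay at the edge of the bin from 250 to 500 bp. That bin contained 27.1% of adriamycin and 27.0% of untreated summits.

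TOP1, the main type I enzyme of the nucleus, relaxes DNA ahead of polymerases. Top1 spans chromosome 2, 160645897 to 160722764, also on the plus strand. Its adriamycin-list peak at 160646319 to 160646629 had its summit inside the gene, 617 bp downstream of the start site. The fold was 4.80, the summit was covered by 11 fragments (5.49 to 19.7), and the local background was 1.50. It ranked 9897 of 16229 by fold. The nearest untreated summit lay 108379 bp from an end of the gene. The Top1 summit therefore sat in the bin 500 to 750 bp downstream, as did the stronger Top2b summit at the edge of that bin. With a q of at most 1e-05, a fold of at least 5 or lists of equal length, Top1 no longer had a gene-end peak and Top2b was the 1 member left. The share of all genes with an adriamycin gene-end peak was 7.12%, 6.94% and 5.73% under these settings.

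The depth limits how far a missing peak can be read. Among untreated peaks whose local background was within 0.1 fragments of that at Top1, the weakest had 8 fragments. At the backgrounds of the Top2b peaks the weakest untreated peaks had 9. Fewer fragments than these at Top1 or Top2b would have gone unlisted, and the lower bounds of the adriamycin intervals, 5.49 at Top1 and 8.40 and 4.80 at Top2b, reach below them. A missing untreated peak at these genes does not by itself show a difference between the libraries.

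**Figure D2:**
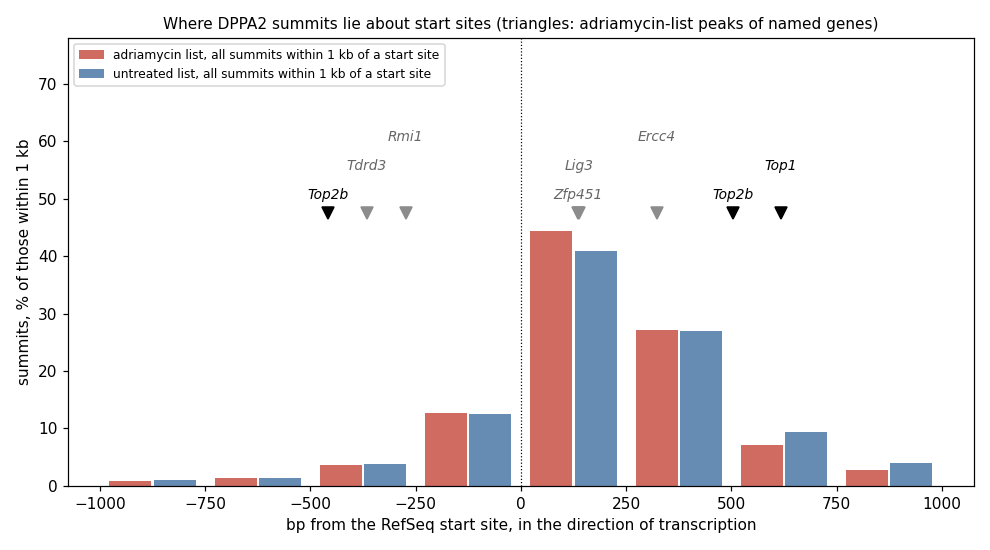
Position of DPPA2 summits about RefSeq start sites, as a percentage of all summits within 1 kb in each list, in 250 bp bins read in the direction of transcription. Triangles mark adriamycin-list summits of Top1 and Top2b (black) and of the partner and repair genes Rmi1, Tdrd3, Lig3, Ercc4 and Zfp451 (grey). Nbn, without a start site in the promoter reference, and Gm960, with its summit over 1 kb from its start site, are not marked. The Top1 and Top2b summits lie at 617, 505 and -459 bp, away from the bin of 0 to 250 bp that holds 44.4% of adriamycin summits.

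The start regions of Top1 and Top2b, which had a peak beside the start, and of Top2a, which had none, are shown as description only. Each is the 250 bases before the RefSeq start site (assembly GRCm38.p6, the mm10 build), written 5′ to 3′ along the gene, with CCAAT boxes (CCAAT or its complement ATTGG) in capitals. Top1 is chr2:160645647-160645896 on the plus strand, Top2b is chr14:16364956-16365205 on the plus strand, and Top2a is chr11:99024190-99024439 on the minus strand.
Top1: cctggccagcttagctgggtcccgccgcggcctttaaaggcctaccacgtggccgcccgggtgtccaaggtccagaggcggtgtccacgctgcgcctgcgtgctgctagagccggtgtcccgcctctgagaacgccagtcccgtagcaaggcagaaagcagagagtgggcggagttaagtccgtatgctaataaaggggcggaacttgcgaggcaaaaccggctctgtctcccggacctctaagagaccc
Top2b: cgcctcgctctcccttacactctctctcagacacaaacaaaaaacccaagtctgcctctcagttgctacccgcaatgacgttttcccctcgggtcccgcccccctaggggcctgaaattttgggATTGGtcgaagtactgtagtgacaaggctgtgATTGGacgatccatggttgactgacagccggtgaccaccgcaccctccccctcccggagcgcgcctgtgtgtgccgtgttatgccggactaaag
Top2a: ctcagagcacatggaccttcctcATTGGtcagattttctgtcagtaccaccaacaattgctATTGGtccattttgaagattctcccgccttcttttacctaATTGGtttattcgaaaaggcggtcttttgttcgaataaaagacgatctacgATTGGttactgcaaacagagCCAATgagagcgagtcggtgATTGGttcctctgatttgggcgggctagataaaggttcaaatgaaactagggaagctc
No peak of either list covered a base of these 3 stretches. The Top2b peaks lay on either side of its stretch, and the Top1 peak lay downstream of its own.

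The CCAAT box is a promoter element bound by the factor NF-Y. The Top2a window of 300 bases, which adds the first 50 bases of the gene, held 6 matches on both strands together, the Top2b window 2, the Top3b window 1, and the Top1 and Tdp1 windows 0. Of 17492 protein-coding genes with a promoter sequence, 39.0% held at least 1 match, 13.5% at least 2 and 0.0915% (16 genes) at least 6. Among genes with an adriamycin gene-end peak these shares were 32.8%, 11.1% and 0.109% (3 genes). Among genes with none in either list they were 40.2%, 13.9% and 0.0895% (13 genes). GC boxes (GGGCGG or CCGCCC) numbered 3 in Top1, 1 each in Top2a, Top2b and Tdp1 and 0 in Top3b, and 46.3% of all windows held one. The TATA box letters TATAAA or TTTATA were in none of the 5 windows and in 13.3% of all. Matches of different motifs shared no base in these windows. A match is a run of letters and was not tested as a binding site.

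Members with and without a gene-end peak overlapped in base composition. Genes with an adriamycin peak at an end had a median promoter GC content of 64.7% (quartiles 57.3 and 71.7%), against 54.7% (46.7 and 62.3%) for genes with none in either list. Their median ratio of observed to expected CpG was 0.79 (0.58 and 0.94), against 0.50 (0.19 and 0.80). Top1 had a GC content of 64.0% and a CpG ratio of 0.94, and Top2b 58.3% and 0.72. Among members without a gene-end peak, Tdp1 had 62.0% and 1.00, Top2a 47.7% and 0.94, and Top3b 45.7% and 0.70. Top2a thus had a CpG ratio like that of Top1 at a lower GC content. Promoter sequences were matched for 5 of the 8 genes, and Top1mt, Top3a and Tdp2 are not described here.

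**Figure D3:**
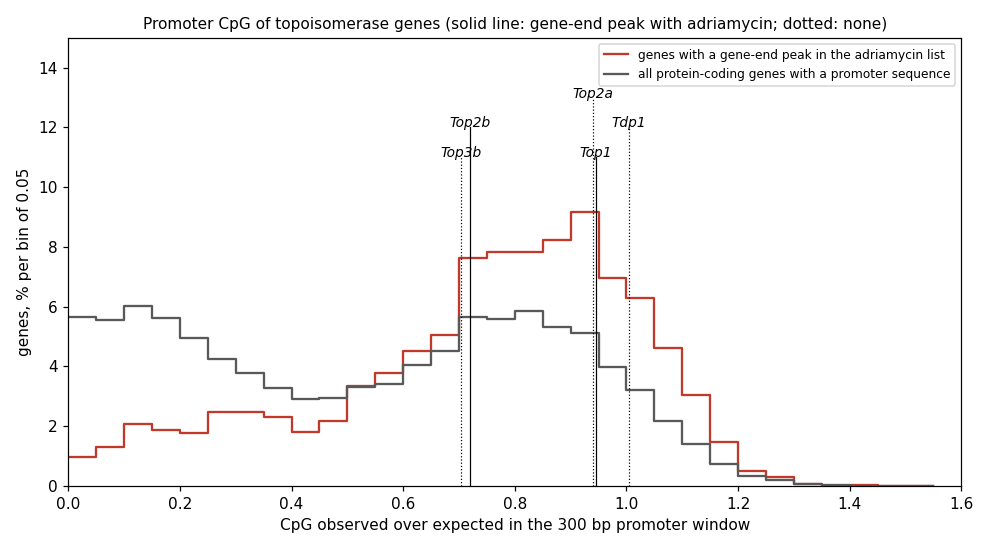
Distribution of the ratio of observed to expected CpG in 300 bp promoter windows for genes with an adriamycin peak at an end (red) and for all protein-coding genes (grey), as a percentage of genes per bin. Vertical lines mark 5 members: Top1 (0.94) and Top2b (0.72), which had a gene-end peak with adriamycin, are solid, and Top2a (0.94), Top3b (0.70) and Tdp1 (1.00), which had none, are dotted.

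TOP2A is the type II enzyme of dividing cells and, with TOP2B, a target of adriamycin. Top2a (chromosome 11, 98992947 to 99024199) had no summit within 1 kb of an end in either list, and its 4 adriamycin-list peaks within 50 kb all lay closer to other genes or inside them. The nearest, at 98982444 to 98982669, was 10392 bp from Top2a and inside Gjd3, a connexin gene, 465 bp from that gene's end. Its fold was 3.96, with 15 fragments (8.40 to 24.7). A pair at 98950660 to 98950859 and 98951319 to 98951684 lay inside Rara, the retinoic acid receptor alpha gene, with folds of 3.59 and 4.85. The nearest protein-coding gene end to both summits was that of Gm46294, 8532 and 9185 bp away. The fourth, at 99062993 to 99063350, had a fold of 4.35 and lay 2620 bp outside Tns4. None of the 4 overlapped an untreated peak, as only 34.4% of all adriamycin-list peaks did. The nearest untreated summit lay 55107 bp from Top2a.

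TOP3A, a type I enzyme that dissolves joined DNA molecules together with BLM and RMI1, was the only member with peaks of both lists within 50 kb. Top3a (chromosome 11, 60738209 to 60777365) had 5 adriamycin-list peaks within 50 kb and 3 untreated ones, all beyond its lower-coordinate end. The 3 untreated peaks each overlapped an adriamycin peak. Closest to the gene, inside the mitochondrial dynamics gene Mief2, the adriamycin peak at 60731138 to 60731780 had a fold of 5.67 and 22 fragments (13.8 to 33.3), 6614 bp from Top3a. Its untreated counterpart at 60731444 to 60731715 had a fold of 5.18 and 19 fragments (11.4 to 29.7), and the summits were 27 bp apart. Inside Flii, an actin-binding protein gene, the summits covered 16 fragments (9.15 to 26.0) with adriamycin and 12 (6.20 to 21.0) untreated, 116 bp apart, with folds of 4.31 and 3.94. Inside Llgl1, a cell polarity gene, they covered 29 fragments (19.4 to 41.6) and 22 (13.8 to 33.3), 120 bp apart, with folds of 5.15 and 4.34.

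All 3 adriamycin pileups were the higher ones, and in each pair the intervals overlapped. Pileups are not scaled between libraries. The genome-wide background, the lowest local background recovered, was 1.03 fragments with adriamycin and 1.19 untreated. At these 3 pairs, however, the local background was also higher with adriamycin. It was 3.06 fragments with adriamycin and 2.86 untreated inside Mief2, 2.94 and 2.3 inside Flii, and 4.82 and 4.3 inside Llgl1. The remaining 2 adriamycin peaks had no untreated counterpart. One at 60712167 to 60712469 had a fold of 3.82, and the other at 60699789 to 60700089, inside Llgl1 and 275 bp from its end, had a fold of 5.00. The gene Smcr8 lies 160 bp beyond the higher-coordinate end of Top3a, where neither list had a summit within 1 kb.

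**Figure D4:**
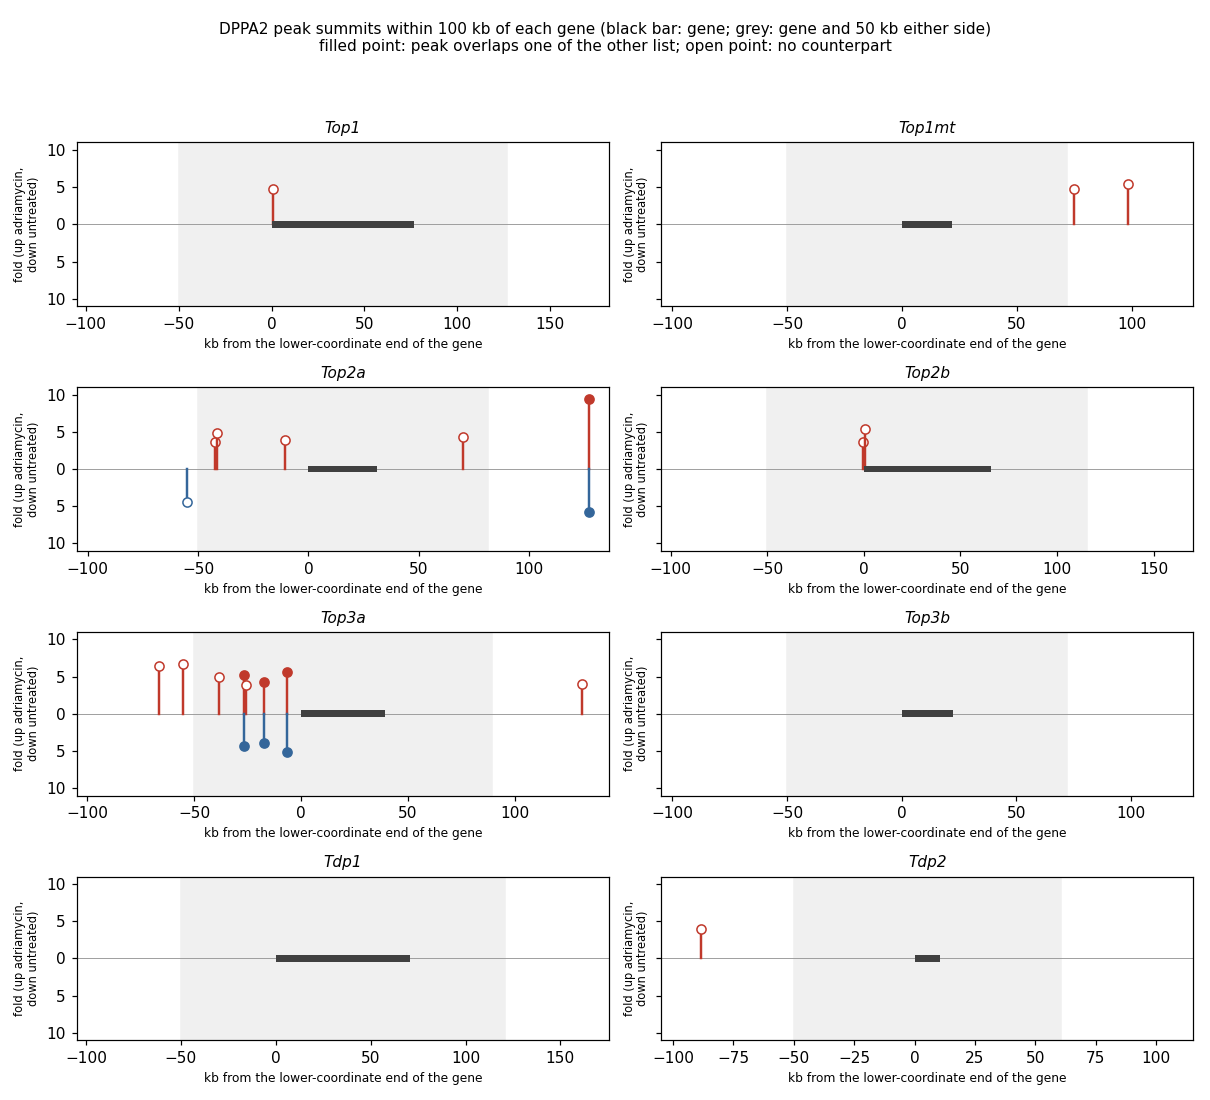
DPPA2 summits within 100 kb of each of the 8 genes, by distance in kb from the gene's lower-coordinate end (black bar, the gene; grey, the gene and 50 kb on either side). Stems rise to the fold enrichment in the adriamycin list (red) and fall to that in the untreated list (blue), filled where the peak overlapped one of the other list; Top1 and Top2b have stems at their start, Top3a has 3 overlapping pairs outside the gene, and Top3b and Tdp1 have none.

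The other 4 members had no peak in either list within the 50 kb. For Top1mt (chromosome 15, 75657033 to 75678800), which encodes the mitochondrial type I enzyme, the nearest adriamycin summit lay 52957 bp away, just past the limit, and the nearest untreated one 206705 bp away. On the inner side of that limit the farthest peak counted was the one 42169 bp from Top2a. Tdp2 (chromosome 13, 24831659 to 24842153) had its nearest summits 88483 bp away with adriamycin and 193839 bp untreated. For Top3b (chromosome 16, 16870722 to 16892986), whose product acts on DNA and RNA with TDRD3, the distances were 177032 bp and 329357 bp. Tdp1 (chromosome 12, 99884515 to 99955223) had its nearest summits 128125 bp away with adriamycin and 1396957 bp untreated. Neither phosphodiesterase gene therefore had a DPPA2 peak at or near it in these lists.

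Over the members together, 3 of 12 adriamycin-list peaks and 3 of 3 untreated peaks overlapped a peak of the other list, against 34.4% and 79.7% of all peaks in those lists. Their folds ran from 3.59 to 5.67 (median 4.57) with adriamycin and from 3.94 to 5.18 untreated. The median over each whole list was 5.10 with adriamycin and 5.16 untreated, and it was exceeded by 3 of the 12 and 1 of the 3. Gene-end peaks of all genes had median folds of 4.79 with adriamycin and 4.69 untreated, so the Top1 peak was close to a typical gene-end peak in fold. By pileup the order differed: 8 of the 12 adriamycin peaks and 2 of the 3 untreated ones were above the list median of 14 fragments. All but the stronger Top2b peak among them lay nearer to other genes or inside them. The gene-end peaks had 11 fragments at Top1 and 15 and 10 at Top2b. The median over all adriamycin gene-end peaks was 14.

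**Figure D5:**
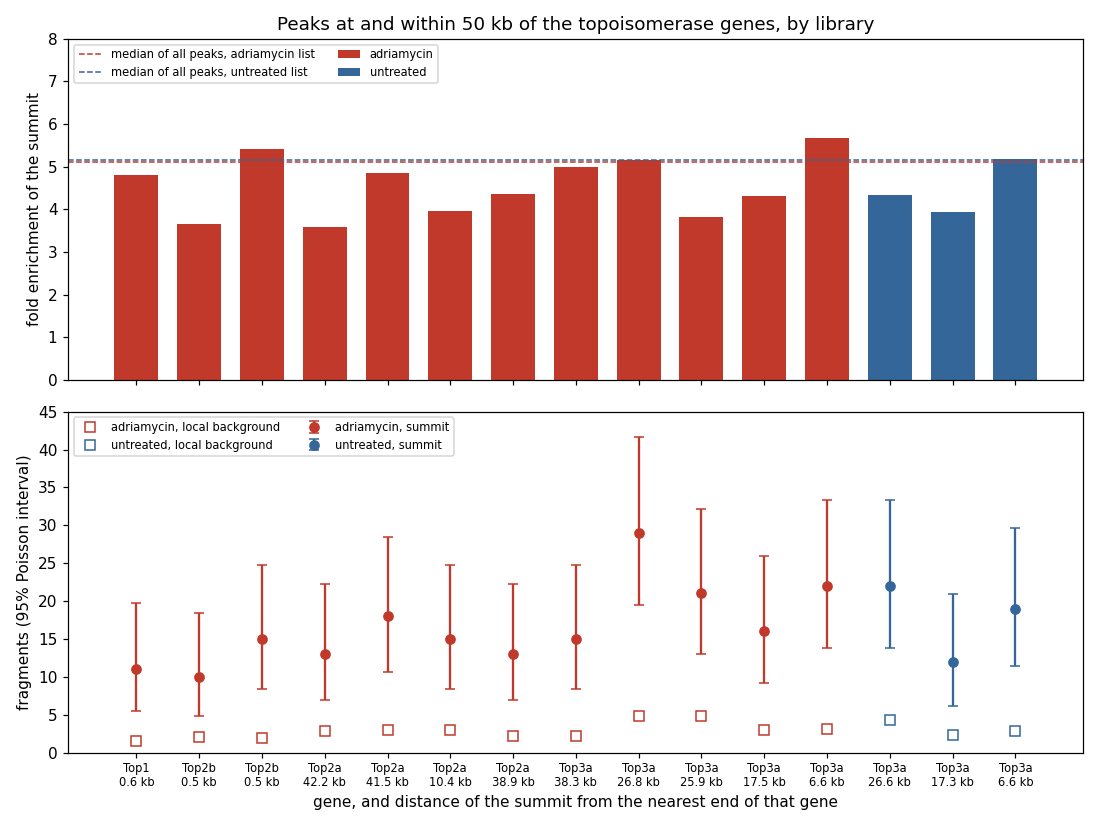
Fold enrichment (top) and summit pileup with its local background (bottom, in fragments) of the 15 peaks at or within 50 kb of Top1, Top2b, Top2a and Top3a, with adriamycin in red and untreated in blue. Dashed lines are the median folds of the 2 lists, 5.10 and 5.16; error bars are exact 95% Poisson intervals for counting error only.

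The enzymes act with partner and repair proteins, and 21 such genes were listed by function. With adriamycin 6 of the 21 (28.6%, 11.3 to 52.2%) had a gene-end peak, and untreated 0 of 21 (0 to 16.1%), against the same 16.0% and 5.78% of all genes. TOP3A's partner RMI1 and TOP3B's partner TDRD3 were among the 6. Rmi1 (chromosome 13, 58402248 to 58411149) had a summit 274 bp upstream of its start with a fold of 3.66 and 8 fragments (3.45 to 15.8). Tdrd3 (chromosome 14, 87416178 to 87545508) had one 39 bp inside its lower-coordinate end, with a fold of 5.00 and 14 fragments (7.65 to 23.5). The Tdrd3 summit lay 366 bp upstream of the RefSeq start site in the promoter reference.

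Of the repair factors, Nbn (chromosome 4, 15957587 to 15992589), a subunit of the MRE11 nuclease complex, had a fold of 5.26 and 11 fragments (5.49 to 19.7). Lig3 (chromosome 11, 82781109 to 82804274), the ligase that seals single-strand breaks, had a fold of 4.20 with its summit 139 bp downstream of the start. The Lig3 peak overlaps the promoter window of another gene, Gm11423. Ercc4 (chromosome 16, 13109366 to 13152009), which encodes the XPF nuclease subunit, had a fold of 4.58. Its summit lay 693 bp from its lower-coordinate end and 323 bp downstream of its RefSeq start site. The sixth was Gm960 (chromosome 19, 4625734 to 4698713), listed under its synonym Top6bl, the partner of SPO11 in meiotic breaks. Its peak, fold 4.66, lay 215 bp beyond the far end of the gene and nearer to Rce1. None of these 6 peaks overlapped an untreated peak. Of all 3324 gene-end peaks in the adriamycin list, only 27.2% did, so the lack of overlap is not particular to these genes. At equal list length 0 of the 21 genes had a gene-end peak in either list, against 5.73% of all genes with adriamycin and 5.78% untreated.

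The Rmi1 start region is shown because an adriamycin peak covers part of it. It is the 250 bases before the RefSeq start site, chr13:58401998-58402247 on the plus strand of GRCm38.p6, with the 151 bases under the peak in capitals. The same peak overlaps the promoter window of Hnrnpk, a neighbour whose end lies 1095 bp from that of Rmi1.
Rmi1: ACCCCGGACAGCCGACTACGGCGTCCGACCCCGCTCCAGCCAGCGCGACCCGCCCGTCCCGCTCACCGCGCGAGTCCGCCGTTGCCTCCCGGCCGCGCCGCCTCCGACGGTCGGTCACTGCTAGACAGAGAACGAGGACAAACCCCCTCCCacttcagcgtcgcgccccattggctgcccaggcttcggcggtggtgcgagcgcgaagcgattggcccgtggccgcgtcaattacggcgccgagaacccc
This stretch was 72.4% GC and held 39 CpG dinucleotides, against 63.6% and 20 in the Top1 stretch, 57.6% and 15 in that of Top2b, and 43.6% and 9 in that of Top2a.

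Further inside their bodies, 5 of the 21 genes had a summit with adriamycin (Blm, Zfp451, Nbn, Parp1 and Spo11) and 1 of 21 untreated (Spo11), against the 17.9% and 8.16% of all genes. The Zfp451 summit lay 1143 bp from the gene's end but 136 bp downstream of its RefSeq start site. Spo11 (chromosome 2, 172977379 to 172993576), the meiotic relative of type II topoisomerases, had summits 11 bp apart in the 2 lists, with folds of 5.24 with adriamycin and 5.38 untreated. Its pileups were 14 fragments (7.65 to 23.5) with adriamycin and 16 (9.15 to 26.0) untreated. Within 50 kb, 16 of the 21 genes had a peak with adriamycin and 7 of 21 untreated, against 66.6% and 36.4%.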

How the data were processed

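DPPA2 ChIP-seq peaks of 1 adriamycin and 1 untreated library were analysed. Groups were taken from the titles. Per the submitters' processing notes, the build was mm10 and the tools were MACS3 3.0.0b1, Bowtie2 2.5.1, deepTools 3.5.1, SAMtools and FastQC 0.12.1. The calling command and the use of input are not given there. The deposited fold enrichment is the authors' ratio of summit to local background, unscaled between libraries; the values fit a pseudocount of 1 fragment on both. Deposited −log10 q and −log10 p values belong to the same summit, and the deposited score equals the integer part of 10 times that −log10 q in 100% of adriamycin and 99.97% of untreated peaks. Another deposited value gives the summit's distance from the peak start. Peaks outside chromosomes 1 to 19, X and Y were left out (142 adriamycin, 126 untreated), leaving 16229 adriamycin and 7043 untreated peaks.

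The lists carry no read totals. Summit pileups were recovered as the whole number of fragments that gives both fold and −log10 p (within 0.001), which succeeded for 99.9% of peaks in each list; the method was tested on simulated data. The median pileup was 14 fragments in both lists. Gene positions, strand and promoter sequences came from RefSeq GRCm38.p6; exon and intron classes were not used here. Lists were compared by an overlap of at least 1 bp. Intervals cover counting error only. The members, the partner list and the windows were chosen with earlier results of these data known. All 8 members are named, with partner genes that had a gene-end peak and any gene nearer to a peak within 50 kb of a member. Software was scipy 1.17.1, pandas 2.3.3, numpy 2.4.6 and matplotlib 3.10.9 under Python 3.11.15. Alternatives were stricter thresholds on q and fold, equal list length, other windows and other overlap rules.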

Additional observations from a re-analysis of the deposited data

How the results depend on the processing

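The untreated counts at gene ends (0 of 8) and both counts inside gene bodies (0 of 8) were the same under each alternative tried for them. Stricter thresholds, equal list length and a narrower window can only lower a count, so they could not change a count of 0. No other alternative was tried inside gene bodies. At gene ends, the window of 2500 bp and counting any base of a peak could have raised the untreated count and did not. In the adriamycin list 1 member, Top2b, was left with a gene-end peak at a q of at most 1e-05, at a fold of at least 5, at equal list length and with a window of 500 bp; Top1 was lost each time. At equal list length the share of all genes with a gene-end peak was 5.73% with adriamycin and 5.78% untreated. It was 7.12% and 2.10% at the stricter q, and 6.94% and 2.14% at the stricter fold. For the other windows, reaches and overlap rules, and for the 50 kb counts at stricter settings, no share over all genes or peaks was computed. Within 50 kb, 2 members had an adriamycin peak at a fold of at least 5, and with a reach of 100 kb 6 had an adriamycin peak and 2 an untreated one (Top2a and Top3a). Member peaks with a counterpart numbered 1 of 4 with adriamycin and 1 of 1 untreated at a fold of at least 5. At equal list length they numbered 2 of 4 and 2 of 3. When 0.5 of both peaks had to overlap, they numbered 1 of 12 and 1 of 3. Partner and repair genes, whose alternatives were chosen after seeing the data, with an adriamycin gene-end peak numbered 1 (Tdrd3) at the stricter q, 2 (Tdrd3 and Nbn) at the stricter fold and 0 at equal list length. With a window of 2500 bp, 8 had an adriamycin one and 2 an untreated one (Aptx and Spo11). Apart from the fewer peaks that stricter settings keep, the cause was not tested. No paired analysis was possible because each group has 1 library. Pileups of 8 to 29 fragments limit every comparison between the libraries, and no input profile was used here.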

Other observations

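The strongest peak within 100 kb of a member lay 95829 bp from Top2a in the adriamycin list, at chromosome 11, 99119859 to 99120284, and 24171 bp from Ccr7, a chemokine receptor gene. Its fold was 9.42, with 35 fragments at the summit (24.4 to 48.7), rank 577 of 16229. Its untreated counterpart at 99119836 to 99120118 had a fold of 5.74 and 20 fragments (12.2 to 30.9), rank 2434 of 7043, and the summits were 8 bp apart. The intervals of the pileups overlap, and the difference was not tested.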
